A study of Glycine max with 46 samples.

Results

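Soybean seeds at 16 h after imbibition were compared with seeds at 3 h after imbibition, which shows what changed in the seed between these times after it took up water. All runs labelled with either time were taken, which gave 12 of the 46 samples in the series, 6 runs per time. The runs of each biological replicate were averaged, which left 3 replicates against 3, or 6 of 21 in the series. Both groups were Glycine max, cultivar Williams 82, with no mutation or chemical treatment in the labels, grown at 22 °C with 16 h of light and 8 h of darkness a day, and by the labels they differed only in time after imbibition. Seed age is not given in the labels. Whole seed is the labelled tissue, although the extraction protocol names embryos, and total RNA was sequenced as Illumina cDNA libraries. The series also holds dry seed, 27 h after imbibition and 3 desiccation stages (early, mid and late), which are used below to describe the genes that changed. The tissue label could not be checked against marker genes, because the gene IDs could not be paired with gene names.

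Imbibition is the uptake of water that ends the dry resting state of a seed and starts germination. A dry seed carries messenger RNA made during maturation, and germination combines the breakdown of these stored transcripts with new transcription as metabolism resumes. In soybean the embryo makes up most of the seed and its cotyledons hold the protein and oil on which the seedling feeds.

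Depth was 64.0, 66.0 and 63.7 M (mega-) reads in the 3 h replicates and 86.5, 81.7 and 59.6 M in the 16 h replicates. Values are normalized counts, read counts divided by a size factor for each run, and 1 read was worth 0.173 to 2.73 of them in these runs. Over the 11509 genes whose mean was 200 or more, each replicate correlated with the mean of the other replicates of its time at r = 0.965 to 0.990 across genes. The share of these genes that lay 2-fold or more from that mean was 3.15% in 3 h replicate 3 and at most 0.956% in the others. Low genes differed more between replicates. The 9395 genes with a mean under 2 at 27 h, called quiet genes here, averaged 2.01, 3.98 and 5.51 normalized counts in the 3 h replicates and 0.839, 1.79 and 0.859 in the 16 h replicates. They were thus lowest in 3 h replicate 1, highest in 3 h replicate 3, and higher in 16 h replicate 2 than in the other 16 h replicates.

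Between 3 h and 16 h 473 abundant transcripts fell, with a median of 41.3% of their 3 h level left. These had a 3 h mean of at least 1000 normalized counts, and 159 stayed called with all libraries scaled to the same total. Rises numbered 4032, mostly of scarcer transcripts than these, the steepest by a log2 change of 9.86. Most falls were of scarcer transcripts too, since 1680 of the 2797 had a 3 h mean under 100. Of 32772 genes tested, 6829 changed (20.8%, limma, Benjamini-Hochberg adjusted p under 0.05, at least 2-fold). Of these, 4032 rose (12.3% of the genes tested) and 2797 fell (8.53%). The median log2 change was 1.73 among the rises, -1.64 among the falls and -0.08 over all genes tested. For 13014 genes (39.7%) the 95% interval of the change lay wholly within 2-fold in either direction, and the other genes that were not called are not shown to be steady. Levels come from bulk seed RNA, so that fewer cells of a type and less RNA per cell cannot be told apart.

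Large rises were more frequent than large falls, although the median log2 changes, 1.73 and -1.64, were of similar size. A rise of at least 4-fold was called for 1535 genes (4.68%), of at least 8-fold for 547 (1.67%) and of at least 16-fold for 204 (0.622%). Falls of these sizes were called for 1017 (3.10%), 152 (0.464%) and 1 gene (0.00305%). A fall from a low level is bounded on the log2(value + 1) scale, and 1680 of the 2797 falls had a 3 h mean under 100. Rises have no such bound, so these counts do not compare the 2 directions evenly. They also hold for the deposited scaling only. All 3 replicates at 16 h lay above all 3 at 3 h for 3974 of the 4032 rises, and all lay below for 2492 of the 2797 falls. Over all genes tested, 8186 (25.0%) were higher at 16 h without overlap and 8521 (26.0%) were lower without overlap.

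The split between rises and falls depended on the scaling of libraries, on the filter and on single libraries. The normalized totals were 18.6, 19.9 and 17.1 M at 3 h and 14.3, 13.2 and 14.1 M at 16 h, lower in every 16 h replicate. When every library was scaled to the same total, a setting added after seeing the data, the median log2 change of all genes moved from -0.08 to 0.32. Of the 7684 genes then called 87.4% rose, against 59.0% of the calls under the deposited scaling. With factors from the trimmed mean of M values (TMM) 64.4% of 6866 calls rose. Rises were 45.2% of the calls without the filter on low values (4068 up and 4926 down), 49.0% without the fold threshold, and 30.5% among genes with both means of at least 200. Leaving out 1 replicate gave 50.3% without 16 h replicate 2 and up to 70.8% without 3 h replicate 2. On recovered reads, where test and scaling both differ, rises were 65.8% of the 6091 calls of edgeR and 55.3% of the 7428 of DESeq2. The deposited data thus give no firm majority of rises over falls. Directions below are relative to the deposited scaling.

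**Figure D1:**
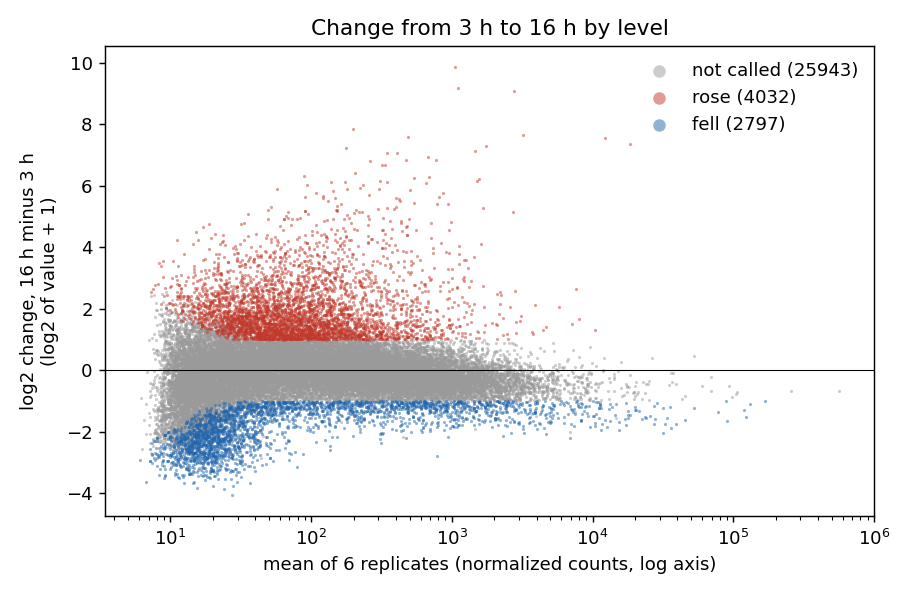
Log2 change from 3 h to 16 h (vertical axis, log2 of value + 1) against the mean of the 6 replicates in normalized counts (horizontal log axis), 1 point per gene tested. The 4032 rises in red reach a log2 change of 9.86, while the 2797 falls in blue end at -4.05 and form 1 cloud at low levels and 1 band that runs to the most abundant genes.

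Genes were next grouped by their level in dry seed, whose libraries took no part in the comparison. Of the 2461 genes tested with a dry seed mean under 10 normalized counts, 774 rose (31.5%) and 102 fell (4.14%). Of the 15513 with a mean from 10 to 100, 2617 rose and 1591 fell, and of the 11428 from 100 to 1000, 613 rose and 622 fell. Of the 3370 with a dry seed mean of 1000 or more, 28 rose (0.831%) and 482 fell (14.3%). In every class most genes were not called. Among those called, falls outnumbered rises in the class of 1000 or more, also without the filter on low values (28 rose and 477 fell). The excess of rises in the scarce classes did not hold without that filter. Under 10 normalized counts 835 of 18491 genes then rose and 1403 fell, and from 10 to 100 the counts were 2594 and 2432. With the filter, 900 of the 2461 scarce genes had a 3 h mean under 10 and were tested only because at least 1 of their 16 h replicates reached 10, and 485 of the 774 rises were among them. Precision differed along this scale, with a median standard error of the log2 change of 0.603 under 10 normalized counts and 0.147 at 1000 and over. Scaling all libraries to the same total moved the split in every class. Then 4130 rose and 632 fell from 10 to 100, 1528 and 150 from 100 to 1000, and 69 and 160 at 1000 and over. Falls still outnumbered rises in that last class only.

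By level at 3 h itself the lowest class is a selected one too. Of 1265 genes tested with a 3 h mean under 10, 608 rose and 0 fell. Such a gene passed the filter on low values only if at least 1 of its 16 h replicates reached 10, so that this count is no measure of how often scarce genes rise. Of 16597 genes with a 3 h mean from 10 to 100, 2765 rose and 1680 fell. Without the filter the counts turned to 678 rises and 838 falls under 10, and to 2733 and 2980 from 10 to 100. With the filter, from 100 to 1000 the counts were 635 and 644 of 11687, and at 1000 and over 24 and 473 of 3223. With all libraries scaled to the same total these became 1542 and 173 from 100 to 1000, and 62 and 159 at 1000 and over.

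**Figure D2:**
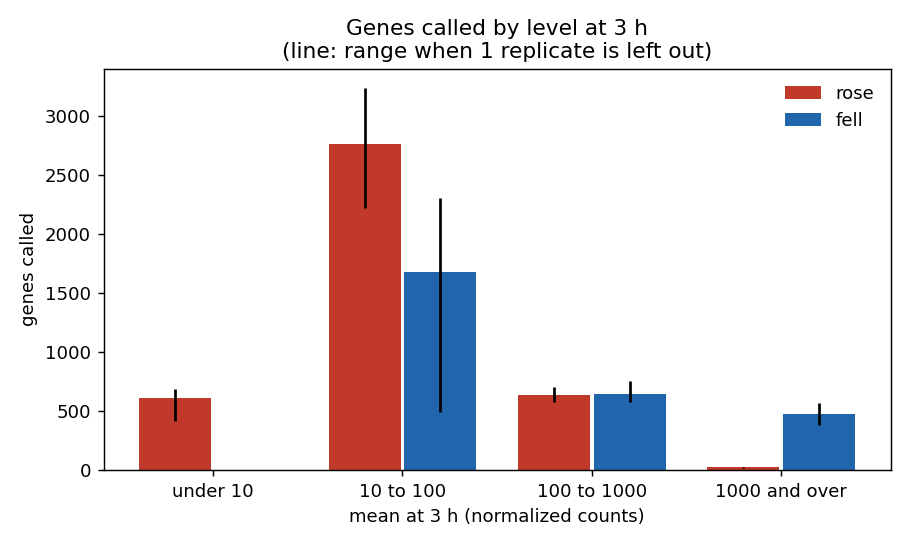
Number of genes called (vertical axis) by mean at 3 h in normalized counts, rises in red and falls in blue, with a black line for the range when 1 replicate is left out. The falls from 10 to 100 normalized counts run from 496 to 2309 when a replicate is left out, against 381 to 571 for the falls at 1000 and over. A gene of the class under 10 passed the filter only if at least 1 of its 16 h replicates reached 10.

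The 473 falls with a 3 h mean of at least 1000, the abundant falls, made up most of the share that all falls held. All 2797 falls held 24.2% of the normalized total at 3 h and 12.6% at 16 h (means, n = 3). The 473 abundant falls held 21.2%, 22.7% and 23.4% of it in the 3 h replicates and 13.1%, 10.5% and 11.7% in the 16 h replicates. The levels of the groups do not overlap, as their choice by this comparison would make them, and no test is given. Single genes fell by up to 6.85-fold, with a median of 2.43-fold, and a median of 41.3% of the 3 h level was left at 16 h. The replicates of the 2 times did not overlap for 471 of the 473. With all libraries scaled to the same total, 159 of the 473 were still called and their median log2 change was -0.86, against -1.28 under the deposited scaling.

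At the stages that the comparison did not use, the abundant falls held a large share before imbibition and a small one at 27 h. They took 23.2% ± 0.866 of the normalized total in dry seed (mean ± SD, n = 3) and 1.83% ± 0.211 at 27 h. A median of 4.66% of the 3 h level was left at 27 h, and 322 of the 473 were below 10% of it. Their highest stage was mid desiccation for 145 (30.7%), dry seed for 133 (28.1%), early desiccation for 100 (21.1%), 3 h for 85 (18.0%) and late desiccation for 10 (2.11%). Of all genes tested, 7.49%, 16.2%, 8.98%, 8.73% and 15.7% were highest at these stages, in the same order. The choice as falls leaves out 16 h as the highest stage. Most of the abundant falls thus had their highest mean in or before the dry seed, which that choice favoured in part.

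Among the falls without overlap between replicates, Glyma17g04550 lost the most normalized counts. Its level was 183894, 210698 and 153495 in the 3 h replicates and 80239, 48184 and 66420 in the 16 h replicates. Every 16 h replicate was below every 3 h replicate. The log2 change was -1.51 ± 0.24 (SE, n = 3 per time, limma adjusted p = 0.000298), and it stayed between -1.68 and -1.10 and called in every one of 20 alternatives. In dry seed the gene stood at 241681 ± 19243 (SD, n = 3), and at 27 h it had dropped to 1702 ± 373.

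The 100 most abundant genes of the dry seed showed the same loss from another side, since the rule that picked them used no 3 h or 16 h library. None of them rose and 54 fell, and 98 of the 100 had a log2 change below 0, with a median of -1.08. In comparison, 8.53% of all genes tested fell and the median over all genes was -0.08. Their share of the normalized total was 27.5% ± 2.74 at 3 h and 18.8% ± 1.46 at 16 h (n = 3). Among the 1000 most abundant, 2 rose and 257 fell. With all libraries scaled to the same total, 28 of the 100 fell and the median was -0.66, below the 0.32 of all genes. The 100 most abundant genes of each library, whichever they were, held 28.6%, 32.4% and 27.0% at 3 h and 22.3%, 19.6% and 22.0% at 16 h. The difference of -8.04 percentage points did not pass 0.05 (exact permutation test over 20 arrangements, two-sided p = 0.1, the smallest that 3 against 3 replicates allow).

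**Figure D3:**
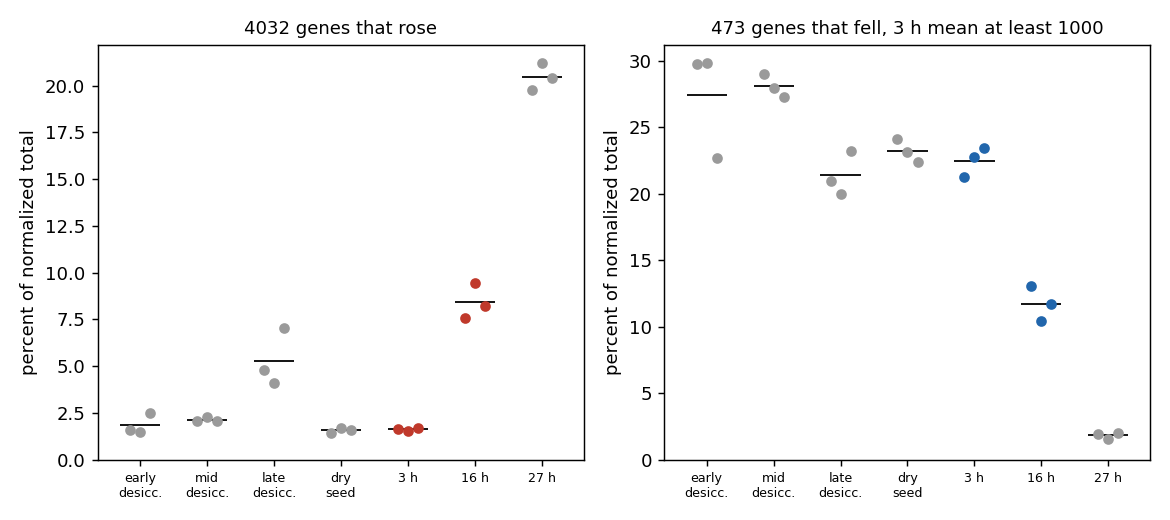
Percent of the normalized total (vertical axis) held by the genes that rose and by the abundant falls at each of the 7 stages, with points for replicates and a line for the stage mean. The rises go from 1.62% at 3 h to 8.42% at 16 h and 20.5% at 27 h, while the abundant falls go from 22.5% to 11.7% and 1.83%.

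The 1680 falls with a 3 h mean under 100 behaved unlike the abundant ones. Their median level was 17.5, 32.7 and 52.4 normalized counts in the 3 h replicates and 4.46, 12.8 and 4.79 in the 16 h replicates. Replicate 3 was the highest library at 3 h and replicate 2 the highest at 16 h, the order that the quiet genes also had. For single genes, the level was lowest in replicate 1 and highest in replicate 3 at 3 h for 1219 of the 1680 low falls, against 117 of the 473 abundant falls. The highest 16 h value was in replicate 2 for 1299 of the 1680, against 29 of the 473. The part of the quiet-gene level in these calls was not tested.

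The number of low falls also rested on single libraries. From 10 to 100 normalized counts at 3 h, 496 genes fell without 3 h replicate 2, 736 without 3 h replicate 3, 714 without 16 h replicate 1 and 637 without 16 h replicate 3, against 1680 with all libraries. Leaving out 3 h replicate 1 gave 2309 such falls and leaving out 16 h replicate 2 gave 2245. With 3 h replicate 3 and 16 h replicate 2 left out together, the libraries with the highest quiet-gene level of their time, 1893 genes of this class fell. Falls at 1000 and over numbered 381 to 571 when 1 replicate was left out, and 442 without those 2 libraries. Of the 1680 low falls, 1111 (66.1%) had their highest stage mean in late desiccation, against 15.7% of all genes tested. That mean was carried by replicates 1 and 2, with group medians of 72.9 and 58.5 normalized counts against 8.68 in replicate 3. The quiet genes were also higher in those replicates, at 10.3 and 8.02 against 2.44, and their part in this peak was not tested.

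Glyma15g20110, the fall of largest log2 change under the naming rule, showed the same pattern. Its level was 41.4, 109 and 275 normalized counts in the 3 h replicates and 13.2, 36.0 and 2.60 in the 16 h replicates. The times do not overlap, but the lowest 3 h replicate and the highest 16 h replicate are close. The log2 change was -3.14 ± 0.95 (SE, n = 3 per time, limma adjusted p = 0.0356), and the call was lost in 8 of 18 alternatives, with adjusted p up to 0.307 in the fit of all 7 stages. The limma adjusted p was 0.0649 without 3 h replicate 2, 0.114 without 3 h replicate 3, 0.069 without 16 h replicate 1 and 0.0576 without 16 h replicate 3. The dry seed replicates read 6.62, 194 and 188, a range that takes in values from both times.

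**Figure D4:**
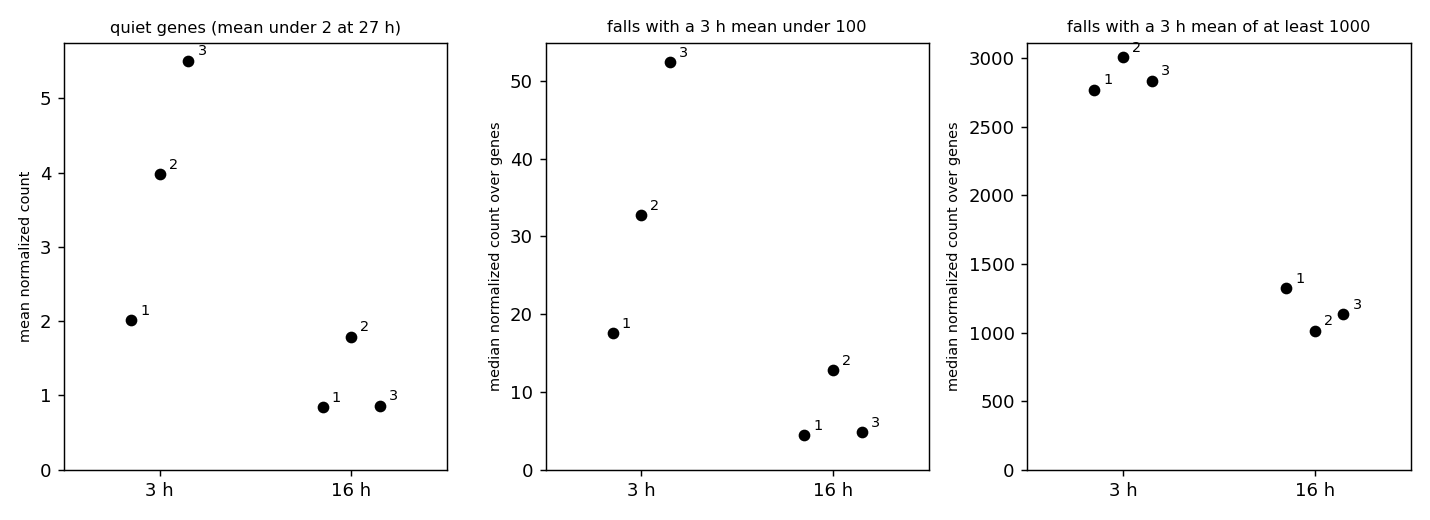
Quiet-gene mean, median level of the 1680 low falls and median level of the 473 abundant falls (vertical axes, normalized counts) in each replicate at 3 h and 16 h, numbered by replicate. The low falls are highest in the libraries in which the quiet genes are highest, 3 h replicate 3 and 16 h replicate 2, while the abundant falls are highest in 3 h replicate 2 and 16 h replicate 1.

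The 4032 rises started from a small share of the library. They held 1.62% ± 0.0673 of the normalized total at 3 h (mean ± SD, n = 3) and 8.42% ± 0.963 at 16 h, given as a description because the comparison chose them. In dry seed, which it did not use, their share was 1.58% ± 0.118, and for 3247 of them (80.5%) the 3 h mean was within 2-fold of the dry seed mean, against 86.0% of all genes tested. At 27 h they held 20.5% ± 0.711, so that as a group they were higher still at that time.

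Later levels separated the rises into several courses. The highest of the 7 stage means was at 27 h for 3190 of them (79.1%) and at 16 h for 723 (17.9%), against 36.2% and 6.80% of all genes tested. The choice as rises leaves out 3 h as the highest stage and favours 16 h. It also disfavours dry seed, whose means were mostly near those of 3 h, so that the choice fixed this contrast in part. From 16 h to 27 h, 1900 went up by a further 2-fold or more in their means, 1833 stayed within 2-fold, and 299 came down by 2-fold or more, 29 of these by 10-fold or more. At 27 h the mean was still above that at 3 h for 3889 of the 4032.

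The direction of both groups was set beside 27 h against dry seed, a comparison that shares no library with 16 h against 3 h. It called 15595 of 35230 genes (44.3%), with 9408 rises (26.7%) and 6187 falls (17.6%). The deposited scaling is shared, and the normalized totals were 20.5, 17.6 and 18.2 M in dry seed and 11.1, 11.7 and 11.7 M at 27 h. With TMM factors 8967 genes rose and 6809 fell, and scaling to equal totals was not tried for 27 h against dry seed. Of 3961 rises at 16 h tested there, 3451 (87.1%) rose from dry seed to 27 h and 21 fell. The 774 rises with a dry seed mean under 10 could pass the filter there only if at least 1 of their 27 h replicates reached 10. Of the 473 abundant falls, 454 (96.0%) fell. Of the 644 falls with a 3 h mean from 100 to 1000, 506 (78.6%) fell, and of 1465 low falls tested, 254 (17.3%) fell. Over the 31637 genes tested in both comparisons, 27.8% rose and 19.2% fell from dry seed to 27 h. Falls were more frequent among abundant genes, with 2487 of the 8433 genes whose dry seed and 27 h means were both at least 200. The falling share among the low falls thus lay near that of all genes. Only 8 of the 1465 low falls (0.546%) rose, however. Their median log2 change from dry seed to 27 h was -0.617, against 0.288 over all genes tested in both. Low genes were measured less precisely, which limits calls among them. The shares among the abundant falls and the rises lay well above those of all genes, which the filter favoured in part for the rises.

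Seen from the other end, the change from dry seed to 27 h was only partly visible between 3 h and 16 h. Of the 8781 genes that rose from dry seed to 27 h and were tested in both, 39.3% also rose from 3 h to 16 h. Of the 6086 that fell, 19.9% also fell and 0.345% rose. The 100 most abundant genes of 27 h included 35 rises and 2 falls between 3 h and 16 h, and the 1000 most abundant included 250 and 23, where 12.3% and 8.53% of all genes tested rose and fell.

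A small set of genes went from near silence to a clear level. Under 10 normalized counts in every 3 h replicate and at least 100 in every 16 h replicate were 32 genes (0.0976% of those tested), called switched on here. Their means ran from 1.36 to 8.21 at 3 h, with a median of 4.25, and from 115 to 2220 at 16 h, with a median of 249. The rule fixes this difference, and the other stages show whether it lasted. In dry seed their means were between 0 and 11.8, and at 27 h between 18.6 and 11178, with a median of 589. The highest stage was 27 h for 22 of them and 16 h for 10. All 31 that could be tested rose from dry seed to 27 h, where 27.8% of all genes tested in both comparisons rose. With dry seed means this low, a gene passed the filter there largely through its 27 h replicates. The count of 31 is therefore a description only. No gene went the other way, from at least 100 in every 3 h replicate to under 10 in every 16 h replicate. Of the 13816 genes with at least 100 in every 3 h replicate, the one that lost most kept 12.9% of its mean, and 32 kept less than 25%, of which 27 were called falls.

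Glyma07g37240 was the switched-on gene with the largest rise. Its level was 1.02, 2.84 and 0.289 normalized counts in the 3 h replicates, from 7 reads in all, and 1391, 1991 and 2877 in the 16 h replicates. All 3 replicates at 16 h were far above every replicate at 3 h. The log2 change was 9.86 ± 0.38 on the log2(value + 1) scale (SE, n = 3 per time, limma adjusted p = 9.35e-09), which understates the change of so low a gene. It stayed called in all 19 alternatives that tested it. At 27 h it read 439, 570 and 1587, and in dry seed 1.02 ± 1.47 (SD, n = 3).

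**Figure D5:**
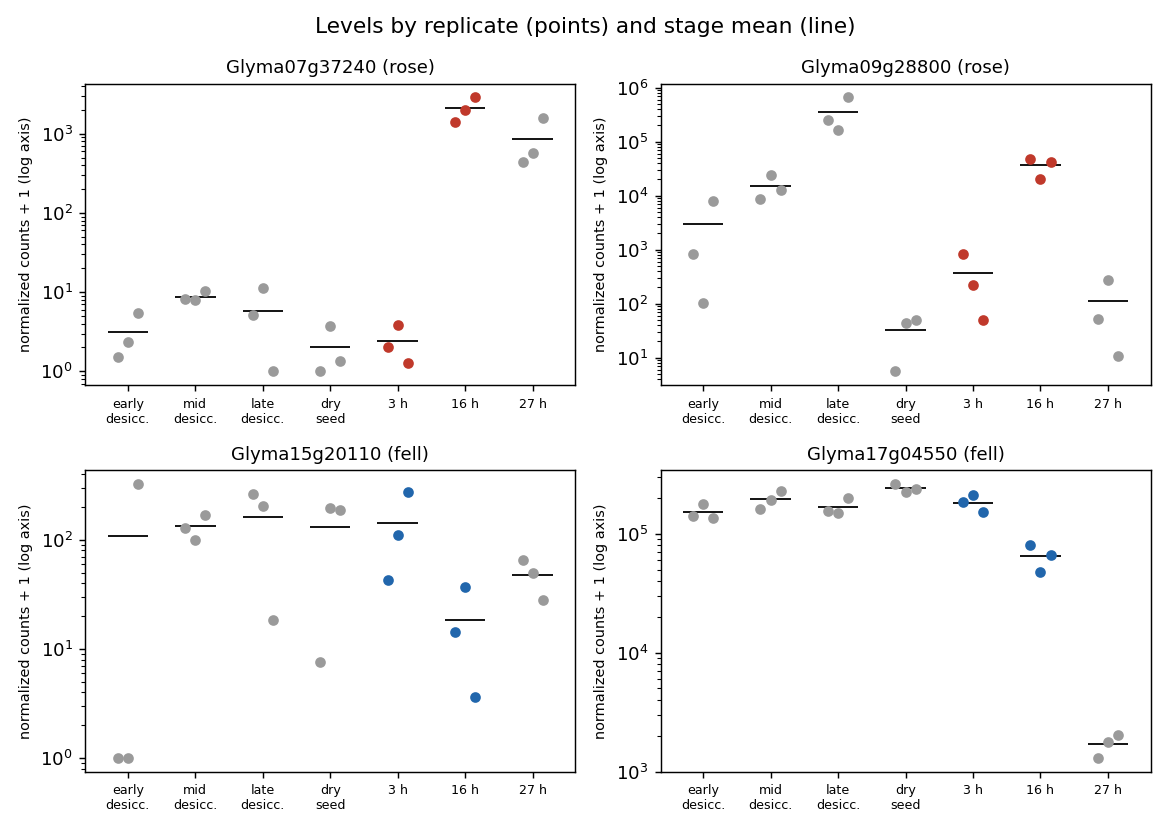
Levels of the 4 genes named by rule, as normalized counts + 1 on a log axis, in every replicate (points) and as stage means (lines) over the 7 stages, with 3 h and 16 h in colour. Glyma07g37240 is low until 3 h and high from 16 h, Glyma09g28800 is high in late desiccation and again at 16 h, Glyma15g20110 overlaps between most stages, and Glyma17g04550 is abundant until 3 h and lower at 16 h and 27 h.

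Among the rises without overlap between replicates, Glyma09g28800 gained the most normalized counts, and it followed another course. Its level was 845, 224 and 48.8 in the 3 h replicates and 47375, 20446 and 42237 in the 16 h replicates. The 3 h values spread over more than a factor of 10 and still lay far below every 16 h value. The log2 change was 7.35 ± 1.19 (SE, n = 3 per time, limma adjusted p = 0.011), and the call held in all 20 alternatives, with adjusted p up to 0.0451. The gene had also been abundant in late desiccation, at 245814, 166419 and 658114, had stood at 4.59, 42.9 and 48.5 in dry seed, and was back at 51.9, 271 and 9.73 at 27 h. Its 16 h level was thus a transient one, below that of late desiccation.

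The same course was looked for in the other rises, by a rule made after the values of Glyma09g28800 were seen. It asked for a late desiccation mean at least 10 times that of dry seed, a 16 h mean at least 10 times that at 3 h and a 27 h mean more than 10 times below that at 16 h. With Glyma09g28800, 14 rises met it. The rule fixes the direction of the differences between these stages, which are given as a description. Their share of the normalized total was 1.97% to 5.49% in the late desiccation replicates, 0.00209% ± 0.00112 in dry seed (mean ± SD, n = 3), 0.00474% ± 0.00483 at 3 h, 0.539% ± 0.155 at 16 h and 0.00240% ± 0.00205 at 27 h. Much of this was Glyma09g28800 itself, with 1.82% ± 1.04 in late desiccation and 0.262% ± 0.0938 at 16 h. The other 13 genes held 0.960% to 2.49% in the late desiccation replicates, 0.00275% ± 0.00257 at 3 h and 0.278% ± 0.0738 at 16 h. At 16 h the single genes stood at 5.43% to 26.1% of their late desiccation mean, with a median of 13.6%. None of the 14 was among the switched-on genes. The values at 3 h were uneven, since 13 of the 14 were higher in replicate 1 than in replicate 3, against 1682 of all 4032 rises. At 16 h, 10 of the 14 were lowest in replicate 2. Late desiccation replicate 3, in which 13 of the 14 were highest within that stage, rests on 2.53 M reads.

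Positions were read from the chromosome number and order carried by the gene IDs. Only tested genes entered this order, so that genes not tested may lie between neighbours or within a run. Rises made up 10.4% of the genes tested on chromosome 15 and 13.5% on chromosome 20, the lowest and highest shares over the 20 chromosomes, and falls between 6.69% on chromosome 4 and 10.2% on chromosome 9. Changes were thus found on every one of the 20 chromosomes. Rises stood next to each other in ID order somewhat more often than their share of all genes, with 16.8% of rises followed by another rise, against 12.3% of all genes. For rises of at least 8-fold the values were 6.58% and 1.67%, or 36 of 547 genes. The longest run held 8 rises in a row on chromosome 8. Abundant falls were followed by another in 12 of 473 cases (2.54%, against 1.45% of all genes), and low falls in 10.1% (against 5.13%).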

How the data were processed

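Total RNA of soybean seeds was sequenced with Illumina TruSeq RNA libraries, per the labels' protocols. The submitters' processing notes list Trimmomatic 0.38 and HISAT2. For the HISAT2 version, counting tool, genome build, annotation and use of strand the entry is not given in the sources used here, which leaves overlapping, antisense and near-identical genes uncertain. The values deposited by the authors are a signal per gene and run, DESeq-normalized counts by the table's name, in which each run's counts are divided by its own size factor. All values were whole multiples of 1 read within 0.001 reads (100% of values), and recovered reads served edgeR and DESeq2 as alternatives. The table has 54175 genes, and 1 of its columns matched no label and was not used. Depth per replicate was 59.6 to 86.5 M reads, and low values are the least precise.

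Runs were averaged per replicate with equal weight. Genes that reached 10 normalized counts in 3 or more of the 6 replicates were tested with limma 3.58.1 (R 4.3.3) on log2(value + 1), with a variance trend and robust moderation, on the 2 times only. A gene was called at a Benjamini-Hochberg adjusted p under 0.05 and at least a 2-fold change on that scale, and 27 h against dry seed was fitted alike. The procedure was tested on simulated data with the same dispersion for all genes. These data held no shift of low genes between libraries, so that test does not bear on the low falls. The 4 genes named are, among called genes without overlap and with a higher mean of at least 100, the rise and the fall of largest log2 change and of largest difference in means. None of the IDs (0) matched the reference table of 59048 genes and the files do not pair them with names, so gene lists were not applied and no sequences are shown. Alternatives were a pseudocount of 5, no filter, TMM, run 1 alone, a replicate block, no fold threshold, all 7 stages in 1 fit, edgeR 4.0.16, DESeq2 1.42.0, both means of at least 200 and leaving out each replicate. Added after seeing the data were scaling to equal totals, leaving out 3 h replicate 3 and 16 h replicate 2 together, a mean of at least 100 over the 6 replicates, and all 7 stages without early and late desiccation replicate 3. The comparison and its groups of genes were chosen with earlier results of these data known. Figures used Python 3.11.15 with matplotlib 3.10.9.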

Additional observations from a re-analysis of the deposited data

How the results depend on the processing

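For 16 h against 3 h, 6829 genes changed, 4032 up and 2797 down. Without the fold threshold the counts were 12846, 6300 and 6546, in the fit of all 7 stages 3275, 2218 and 1057, with both means of at least 200 they were 957, 292 and 665, and with a mean of at least 100 over the 6 replicates 2601, 1592 and 1009. Without the filter 4068 rose and 4926 fell. With equal totals 6712 rose and 972 fell, and 159 of the 473 abundant falls kept their call. Leaving out 1 replicate gave 5116 to 7429 changed, 3268 to 4548 up and 1565 to 3565 down, the lowest without 3 h replicate 2, and 1701 without 16 h replicate 3. Falls at low levels carried this range. Same-numbered replicates of the 2 times correlated at 0.297, 0.092 and -0.243 in their deviations, within a range of -0.499 to 0.408 over all pairs. Deviations were taken within each time, which ties these values together, so they cannot show whether the numbers paired replicates. The replicate block called 6951 genes, 58.0% of them rises. DESeq2 called 7428, 55.3% rises, with 10 genes without an adjusted p. No gene among the 4 named changed direction. For 27 h against dry seed, leaving out 1 replicate gave 13322 to 17863 changed, 7470 to 10141 up and 5766 to 7722 down, and both means of at least 200 gave 3298, 811 and 2487. The difference in the share of the 100 most abundant genes ran from -9.19 to -6.51 points without 1 replicate, and was -3.67 for the 10 most abundant. Where not shown by construction (fewer genes, more calls without a threshold), the cause was not tested. Depth limits genes under 10 normalized counts most.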
